A study of Mus musculus with 19 samples.

Results

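The RNA of 47 mouse genes that copy DNA or supply S phase, the stage of the cell cycle in which the genome is duplicated, was followed through myeloid cells of newborn and adult spleen. The members are a list of gene symbols with known roles in DNA replication; the list itself uses no measured value, but it was drawn up with earlier results of these data known. All 47 symbols were found among the 38887 genes of the deposited count table, and all 47 passed the expression filter that left 12943 genes for testing. They were ordered by role into 10 genes of origin licensing, 8 of origin firing, 18 of the polymerases and the replication fork, 6 of nucleotide supply and 5 of chromatin copying.

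The cells were myeloid-derived suppressor cells (MDSC), immature-looking myeloid cells that can restrain T cell responses, in a neutrophil-like form (PMN-MDSC) and a monocyte-like form (M-MDSC). The 4 groups were 5 libraries of newborn PMN-MDSC (replicates 2, 3, 37, 38 and 39), 6 of adult PMN-MDSC (replicates 1, 2, 3, 32, 33 and 34), 5 of newborn M-MDSC (replicates 1, 2, 3, 77 and 79) and 3 of adult M-MDSC (replicates 1, 3 and 28). Newborns were 7 days old and adults 6 to 8 weeks old, the labels give no strain, genotype, sex or treatment, and values of a group are listed below in the order of these replicate numbers. Per the labels, both types were defined by surface markers, PMN-MDSC as CD11b+ Ly6C-intermediate Ly6G+ and M-MDSC as CD11b+ Ly6C-high Ly6G- cells, and both magnetic Ly6G beads and cell sorting are named for PMN-MDSC. Whether replicates are different animals is not said in the labels, and the tests then speak to the variation among these libraries alone, some of which may be technical.

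Replication starts at origins. The origin recognition complex (Orc genes), Cdc6 and Cdt1 load the ring-shaped helicase made of Mcm2 to Mcm7 onto DNA in G1, a step called licensing. At the start of S phase, Cdc45 and the GINS complex join each ring to make it an active helicase, after which the polymerases alpha, delta and epsilon copy the strands, clamped by PCNA. Most circulating and splenic neutrophils and monocytes have left the cell cycle, whereas their precursors in bone marrow, and in the spleen of young mice, divide.

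Many replication genes carry, near their start, DNA words bound by the E2F transcription factors, which switch on genes at the entry to S phase. RefSeq promoter windows of 300 bases (250 before the annotated start and 50 after it, build GRCm38.p6) matched 38 of the 47 symbols. A search on both strands for the words TTTGGCGC, TTTCCCGC, TTTCGCGC and TTTGCCGC, which can overlap each other, found at least 1 in the windows of 16 of these 38 genes (42.1%), against 704 of the 27025 genes in the RefSeq table (2.6%). The 16 genes were Orc1, Cdc6, Cdt1, Mcm3, Mcm5, Mcm6, Mcm7, Gins3, Pola1, Pole2, Pold1, Rfc3, Lig1, Clspn, Uhrf1 and Dnmt1. CCAAT, the word bound by the factor NF-Y, occurred in the windows of 23 of the 38 genes (60.5%), against 11096 of 27025 (41.1%). The 27025 genes include genes that were not tested here, and spellings close to these words were not searched. A word found is a description of the letters and shows no binding.

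The 150 bases before the start are printed below for 5 genes on the plus strand, 5′ to 3′, as examples of windows with and without these words: Orc1, Cdc6 and Gins3 hold an E2F word in this stretch, while Rrm1 and Rrm2, the subunits of ribonucleotide reductase, hold none in their windows. Capitals mark the E2F words (here read on the minus strand, as GCGCGAAA or GCGGGAAA) and the CCAAT words (ATTGG on the minus strand).
Orc1 (chr4:108579304-108579453): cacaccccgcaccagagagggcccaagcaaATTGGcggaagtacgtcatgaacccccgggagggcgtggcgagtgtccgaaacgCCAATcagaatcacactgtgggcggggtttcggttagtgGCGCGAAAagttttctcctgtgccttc
Cdc6 (chr11:98908001-98908150): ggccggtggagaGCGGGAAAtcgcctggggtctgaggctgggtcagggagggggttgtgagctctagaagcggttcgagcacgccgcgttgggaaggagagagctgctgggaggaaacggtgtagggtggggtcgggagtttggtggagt
Gins3 (chr8:95633409-95633558): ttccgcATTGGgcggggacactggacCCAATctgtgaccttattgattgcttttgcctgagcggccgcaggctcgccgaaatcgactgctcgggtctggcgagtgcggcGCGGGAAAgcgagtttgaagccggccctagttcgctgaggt
Rrm1 (chr7:102441545-102441694): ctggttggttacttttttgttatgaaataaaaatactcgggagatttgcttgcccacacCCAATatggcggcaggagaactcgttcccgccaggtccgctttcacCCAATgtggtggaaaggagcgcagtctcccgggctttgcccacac
Rrm2 (chr12:24708104-24708253): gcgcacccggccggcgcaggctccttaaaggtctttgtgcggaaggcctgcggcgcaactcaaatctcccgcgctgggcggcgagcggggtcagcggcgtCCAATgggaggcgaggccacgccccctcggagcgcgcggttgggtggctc
The E2F word lay 27 bases before the RefSeq start in Orc1, 138 in Cdc6 and 41 in Gins3, counted to its first base as printed. The GENCODE annotation used here starts these genes earlier, at base 108579423 for Orc1, 98907801 for Cdc6 and 95633453 for Gins3. By that annotation the 3 words lie inside the genes. An E2F word stood in the windows of 10 of the 24 members called higher in newborn PMN-MDSC that had a window (41.7%), of 6 of the 13 not called there (46.2%), and not in that of the 1 called lower, given as shares with no test.

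Several facts about the libraries bear on the values that follow. The 10 libraries of batch 1 held 827744 to 2965896 counts each and the 9 of batch 2 held 14026193 to 45135933, so 3 counts, the level a count of 0 allows, stand for 0.990 to 3.29 CPM (a gene's counts relative to the scaled library total) in batch 1 and 0.0601 to 0.197 CPM in batch 2. These floors cover counting error only. In PMN-MDSC, 5 libraries of batch 1 resembled 5 of batch 2 (adult 1 and 32, 2 and 33, 3 and 34, newborn 2 and 37, 3 and 38): their deviations from the batch and group means correlated at 0.354 to 0.620, against -0.448 to 0.159 for the 10 other pairings. Part of this gap is built in, as the pairs were picked by resemblance and centring on few libraries pushes other pairings below 0. The labels do not say whether the matched libraries share a specimen, so results are also given without the batch 1 partner. Adult M-MDSC replicate 28 had 0 counts for 169 of the 7688 genes (2.20%) that reached 10 CPM in both other adult M-MDSC libraries, against 0% to 0.624% in the other 18 libraries by the same measure in their own groups. It had 0 counts for 12 of the 47 members, against 4 in adult M-MDSC replicate 1 and 1 in replicate 3. Kdm5d, a gene of the Y chromosome, was detected in all 10 newborn libraries and in none of the 9 adult libraries, so age and the mix of sexes cannot be told apart.

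The labelled cell types were checked against their markers. Ly6g, the surface protein used to isolate PMN-MDSC, had 176 to 245 CPM in newborn PMN-MDSC and 12.1 to 24.7 in adult PMN-MDSC, against 0 to 1.85 in newborn M-MDSC and 0 to 0.830 in adult M-MDSC. The monocyte chemokine receptor Ccr2 had 228 to 941 CPM in newborn M-MDSC and 300 to 700 in adult M-MDSC, against 3.29 to 6.53 in newborn PMN-MDSC and 6.58 to 22.7 in adult PMN-MDSC. The summed CPM of 12 B cell markers was 370.4 to 583 in newborn PMN-MDSC and 3033 to 4839.6 in adult PMN-MDSC, and 87.8 to 158 in newborn M-MDSC and 635 to 1631 in adult M-MDSC. Other lymphoid markers were lower in newborns too. In M-MDSC 12 T cell genes summed to 10.4 to 46.8 CPM in newborns and 162 to 428 in adults, and in PMN-MDSC to 46.3 to 79.0 in newborns and 80.0 to 189 in adults. The 8 plasma cell genes, 7 of them tested, summed to 265 to 342 CPM in newborn M-MDSC and 508 to 638 in adult M-MDSC, and to 188 to 235 in newborn PMN-MDSC and 579 to 991 in adult PMN-MDSC. The 8 NK cell genes, 6 of them tested, summed to 0 to 3.71 CPM in newborn M-MDSC and 23.0 to 51.5 in adult M-MDSC, and to 3.03 to 6.43 in newborn PMN-MDSC and 9.87 to 34.0 in adult PMN-MDSC. By edgeR's quasi-likelihood test (adjusted p under 0.05) the genes called lower in newborn M-MDSC were 11 of 12 for B cells, 12 of 12 for T cells, 6 of 7 for plasma cells and 5 of 6 for NK cells, where 14.3% of all genes tested were called lower. In newborn PMN-MDSC they were 11 of 12, 5 of 12, 6 of 7 and 3 of 6 in that order of lists, where 20.5% of all genes were. Adult libraries of both types thus held the higher lymphoid signal, and its part in the results below was not tested.

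Summed over the 47 genes, replication RNA was higher in newborns in both cell types. The sum was 2229, 2759, 2225, 2833 and 2575 CPM in newborn PMN-MDSC, against 1053 (lowest), 1153 (median) and 1255 (highest) in adult PMN-MDSC. In M-MDSC it was 4324, 5878, 5576, 4931 and 4758 CPM in newborns, against 927, 1100.0 and 922 in adults. The groups did not overlap in either cell type, and the ratio of the group means was 2.20 in PMN-MDSC and 5.18 in M-MDSC. In bulk samples, fewer dividing cells and less RNA per cell cannot be told apart.

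**Figure D1:**
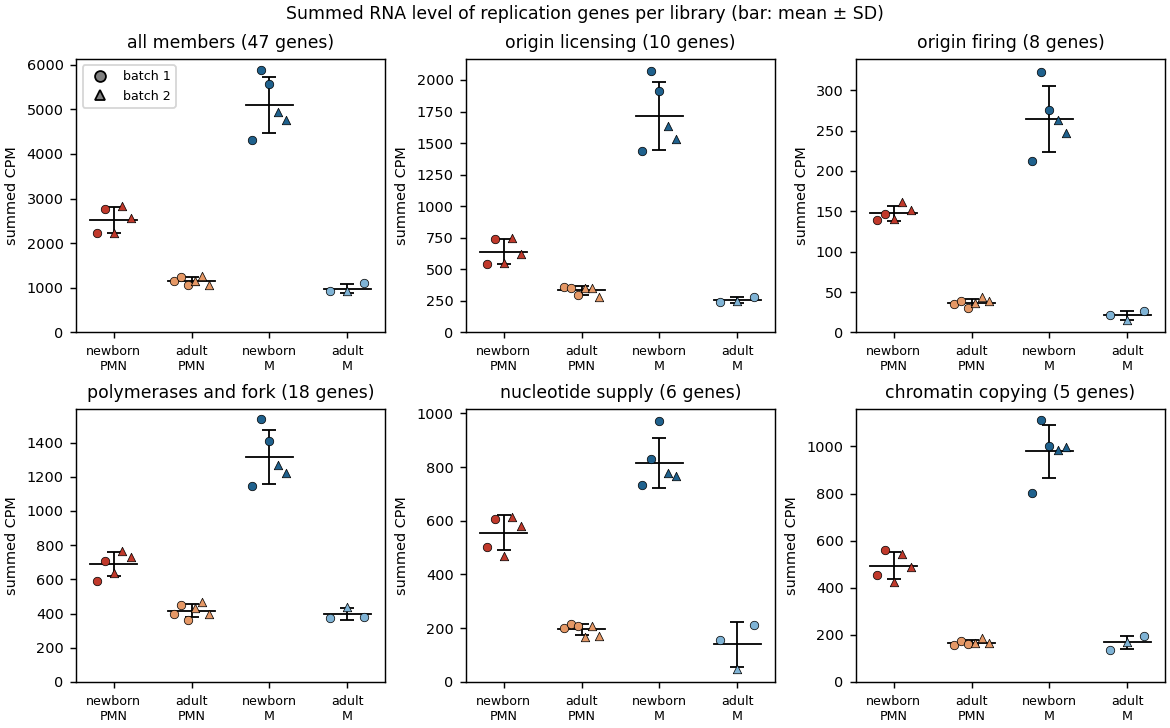
Summed CPM (vertical axis, from 0) of all 47 genes and of each role group, for every library of newborn PMN-MDSC, adult PMN-MDSC, newborn M-MDSC and adult M-MDSC; circles are batch 1, triangles batch 2, and bars the mean ± SD. Newborn libraries lie above adult libraries of the same cell type in every panel, and newborn M-MDSC lie highest.

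By role, the newborn over adult ratio of mean sums for origin licensing was 6.67 in M-MDSC and 1.92 in PMN-MDSC. Origin firing had 12.6 in M-MDSC and 4.00 in PMN-MDSC. The polymerases and fork proteins had the smallest ratios, 3.32 in M-MDSC and 1.65 in PMN-MDSC. Nucleotide supply had 5.84 in M-MDSC and 2.84 in PMN-MDSC, and chromatin copying had 5.84 in M-MDSC and 2.95 in PMN-MDSC.

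Markers of dividing precursors and of other cells moved with the age groups, and their part in the results was not tested. For the calls below, the shares over all genes tested were 27.1% higher and 20.5% lower in newborn PMN-MDSC. In newborn M-MDSC these shares were 15.9% higher and 14.3% lower. The summed CPM of 19 erythroid markers, genes of red cell precursors, was 5699, 3286, 5449, 3235 and 5016 in newborn PMN-MDSC and 216 to 528 in adult PMN-MDSC, with 16 of the 19 called higher (edgeR's quasi-likelihood test, adjusted p under 0.05). In M-MDSC it was 1689, 2922, 1114, 41.3 and 127 in newborns and 77.3, 186 and 544 in adults, with 0 of 19 called higher by edgeR's test, 3 at an unadjusted p under 0.05, 4 by DESeq2 and 1 by limma-voom, although all 19 fold changes were positive. Newborn M-MDSC replicates 1, 2 and 3 lay above all 3 adult M-MDSC libraries in erythroid markers. Replicates 77 and 79, at 41.3 and 127 CPM, lay below at least 2 of the 3. The replication sum was 4324 to 5878 CPM over all newborn M-MDSC libraries and 922 to 1100 in adult M-MDSC. What erythroid cells add to it was not tested.

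The summed CPM of 11 granulocyte progenitor markers, which include the granule proteins Mpo and Elane, was 1241 to 1517 in newborn PMN-MDSC and 53.3 to 82.6 in adult PMN-MDSC, with 9 of 11 called higher. It was 2672 to 6839.6 in newborn M-MDSC and 127 to 239 in adult M-MDSC, with all 11 called higher. In newborn M-MDSC Mpo itself ran from 1199 to 3116 CPM, against 38.4 to 99.6 in adult M-MDSC. The summed level of 12 neutrophil markers was 101772 to 114218 CPM in newborn PMN-MDSC and 10462 to 11153 in adult PMN-MDSC, with 10 of 12 called higher and 1 lower. It was 3187 to 14596 CPM in newborn M-MDSC and 669 to 1163 in adult M-MDSC, with 9 of 12 called higher and Ly6g at or near 0 in both. The summed level of 12 monocyte markers was 18366 to 24098 CPM in newborn PMN-MDSC and 2593 to 3265 in adult PMN-MDSC. Of the 12, 5 were called higher (41.7%) and 6 lower (50.0%). Lyz2, a lysozyme gene that neutrophils also express, made up most of that sum in newborn PMN-MDSC. In M-MDSC the monocyte sum was 19077 to 28498 CPM in newborns and 17129.5 to 25333 in adults. There 1 of 12 was called higher (8.33%, against 15.9% of all genes) and 3 lower (25.0%, against 14.3%). Stem and progenitor markers summed to 115 to 141 CPM in newborn PMN-MDSC and 43.8 to 65.4 in adult PMN-MDSC, and to 109 to 179.6 in newborn M-MDSC and 51.6 to 102 in adult M-MDSC, with 3 of 8 called higher in PMN-MDSC, a share (37.5%) near the 27.1% of all genes tested, and 4 of 8 in M-MDSC, against 15.9% of all genes.

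**Figure D2:**
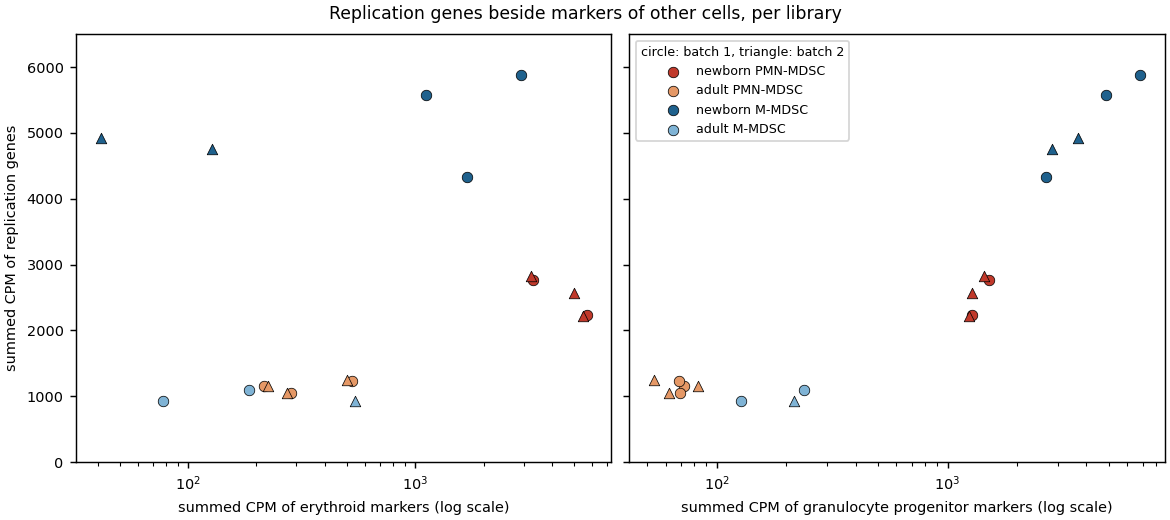
Summed CPM of the 47 replication genes (vertical axis, from 0) against the summed CPM of erythroid markers (left) and granulocyte progenitor markers (right, both horizontal axes on a log scale) in the 19 libraries; circles are batch 1 and triangles batch 2. Newborn M-MDSC libraries range from 41.3 to 2922 CPM of erythroid markers, with replication sums of 4324 to 5878 CPM.

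Gene by gene, edgeR's quasi-likelihood test (Benjamini-Hochberg adjusted over all genes, called under 0.05) placed 30 of the 47 genes higher and 1 lower in newborn PMN-MDSC. The background was 27.1% of all genes tested called higher and 20.5% called lower. The median log2 fold change, newborn over adult, was 1.10 over the 47 genes and -0.05 over all genes tested. In 28 members every newborn PMN-MDSC library lay above every adult one, which was true of 28.4% of all genes tested. Other scalings moved the median of all genes in this comparison to -0.22 (DESeq2 size factors) and -0.29 (upper quartile), and the split of all calls from 3514 higher and 2657 lower to 2756 higher and 3552 lower under the upper quartile. The members called higher then numbered 28 and 27.

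In M-MDSC 43 of the 47 genes were called higher in newborns and none lower, on a background of 15.9% higher and 14.3% lower by the same test. All 47 log2 fold changes were positive, with a median of 2.84 against 0.01 over all genes tested. DESeq2 and limma-voom, fitted separately, called none lower either. The edgeR fit on the M-MDSC libraries alone, which takes no spread from PMN-MDSC, called 29 members higher, and 665 of 10814 genes. In 42 members no newborn M-MDSC library overlapped an adult one, as in 12.8% of all genes tested. The 4 genes not called were Orc6, Pola1, Tyms and Ung.

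Whether the age effect differed between the cell types was tested in the same model, as M-MDSC minus PMN-MDSC. The age effect was larger in M-MDSC for 20 of the 47 genes by edgeR's test and smaller for none, against 6.61% and 11.5% of all genes tested. At an unadjusted p under 0.05 it was larger for 32 and smaller for 0, and DESeq2 called 30 larger and 0 smaller, limma-voom 29 and 0. The median difference was 1.60 on the log2 scale, against -0.06 over all genes tested. The 20 genes were 8 of origin licensing, 2 of origin firing, 5 of the fork, 3 of nucleotide supply and 2 of chromatin copying. These fits count the matched PMN-MDSC libraries as independent. Without their batch 1 partners edgeR called 11 larger (background 1.35%). Mcm5, Mcm10, Gins3, Pola2, Pole, Pold1, Rpa2, Dut and Chaf1a were then not called, so their differences below carry that limit.

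**Figure D3:**
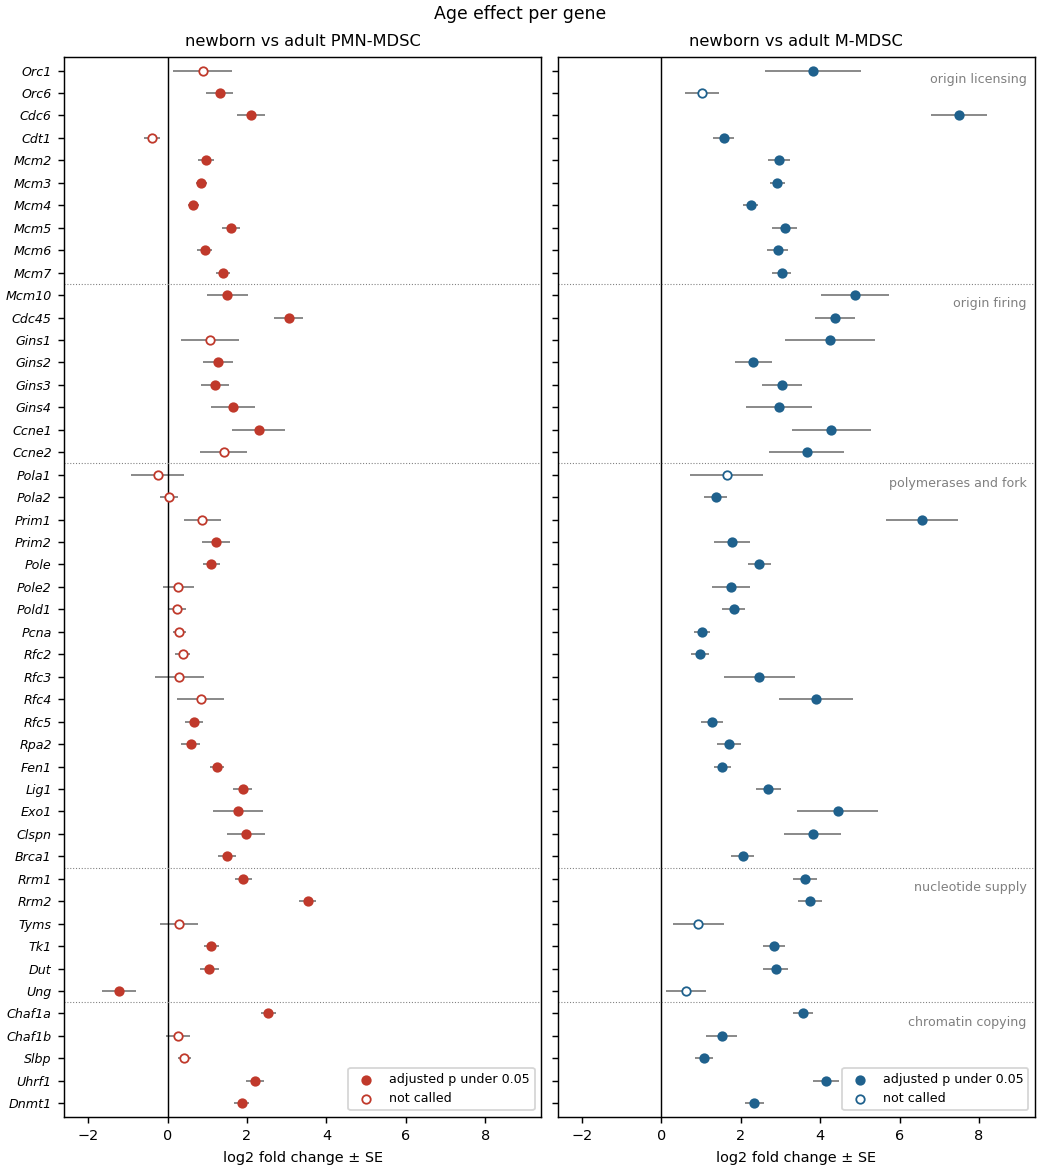
Log2 fold change, newborn over adult, ± SE (horizontal axis) for the 47 genes in PMN-MDSC (left) and M-MDSC (right); filled points passed an adjusted p of 0.05, open points did not, and dotted lines part the role groups. Only Cdt1, Pola1 and Ung lie below 0 in PMN-MDSC, and no gene does in M-MDSC.

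Origin licensing loads the helicase before S phase. In PMN-MDSC 8 of the 10 genes were called higher in newborns, in M-MDSC 9, and for 8 the age effect was larger in M-MDSC. The helicase subunits Mcm2 to Mcm7 were each called higher in newborns of both types, by 0.65 to 1.60 on the log2 scale in PMN-MDSC and by 2.25 to 3.11 in M-MDSC. Mcm2 had 62.4, 100.3, 66.3, 96.2 and 67.3 CPM in newborn PMN-MDSC, against 37.8 (lowest), 39.99 (median) and 42.3 (highest) in adult PMN-MDSC. Mcm2 in M-MDSC had 195, 296, 269, 236 and 219 CPM in newborns, against 14.3, 40.3 and 37.2 in adults. Every newborn library lay above every adult library of its type. Mcm2's log2 fold change, newborn over adult, was 0.97 ± 0.20 (adjusted p = 0.000662) in PMN-MDSC and 2.96 ± 0.28 (adjusted p = 3.77e-07) in M-MDSC, and the difference of these age effects was 1.99 ± 0.33 (adjusted p = 0.000343).

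Mcm3 stood at 71.1, 93.4, 72.6, 83.9 and 83.5 CPM in newborn PMN-MDSC, while the adult PMN-MDSC libraries had a lowest value of 37.1, a median of 48.0 and a highest value of 51.5. Mcm3 counted 215, 296, 262, 273 and 257 CPM in newborn M-MDSC and 44.4, 32.4 and 28.4 in adult M-MDSC. The ages did not overlap in either type, and newborn M-MDSC were also wholly above newborn PMN-MDSC. Mcm3's log2 fold change, newborn over adult, was 0.85 ± 0.14 (adjusted p = 5.42e-05) in PMN-MDSC and 2.92 ± 0.19 (adjusted p = 8.54e-09) in M-MDSC, and the difference of these age effects was 2.07 ± 0.23 (adjusted p = 7.17e-06). Mcm4 had 56.9, 62.7, 54.8, 72.2 and 66.7 CPM in newborn PMN-MDSC, against 35.1 (lowest), 39.6 (median) and 44.4 (highest) in adult PMN-MDSC. Mcm4 in M-MDSC had 102, 97.5, 134, 127 and 116 CPM in newborns, against 23.6, 30.7 and 19.2 in adults. Mcm4 had the smallest PMN-MDSC change of the 6 subunits, although its ages were still apart. Mcm4's log2 fold change, newborn over adult, was 0.65 ± 0.14 (adjusted p = 0.00076) in PMN-MDSC and 2.25 ± 0.19 (adjusted p = 8.44e-08) in M-MDSC, and the difference of these age effects was 1.60 ± 0.22 (adjusted p = 7.24e-05).

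Mcm5 had 98.5, 125, 89.3, 127 and 96.4 CPM in newborn PMN-MDSC, against 25.2 (lowest), 37.3 (median) and 43.8 (highest) in adult PMN-MDSC. Mcm5 counted 259, 484, 342, 285 and 278 CPM in newborn M-MDSC and 19.7, 34.5 and 57.1 in adult M-MDSC. Newborn M-MDSC replicate 2 was the highest library for Mcm5, and the ages were apart in both types. Mcm5's log2 fold change, newborn over adult, was 1.60 ± 0.23 (adjusted p = 1.35e-05) in PMN-MDSC and 3.11 ± 0.31 (adjusted p = 8.11e-07) in M-MDSC, and the difference of these age effects was 1.52 ± 0.37 (adjusted p = 0.00695). Mcm6 stood at 81.5, 116, 90.8, 125 and 113 CPM in newborn PMN-MDSC, while the adult PMN-MDSC libraries had a lowest value of 47.1, a median of 52.8 and a highest value of 66.0. Mcm6 in M-MDSC had 226, 217, 308, 252 and 219 CPM in newborns, against 31.8, 47.7 and 19.7 in adults. Every newborn library again exceeded every adult library of its type. Mcm6's log2 fold change, newborn over adult, was 0.93 ± 0.18 (adjusted p = 0.00037) in PMN-MDSC and 2.93 ± 0.26 (adjusted p = 1.65e-07) in M-MDSC, and the difference of these age effects was 2.00 ± 0.30 (adjusted p = 0.000148). Mcm7 had 97.4, 135, 101, 142 and 113 CPM in newborn PMN-MDSC, against 36.7 (lowest), 47.3 (median) and 57.4 (highest) in adult PMN-MDSC. Mcm7 counted 253, 412, 357, 216 and 250.4 CPM in newborn M-MDSC and 33.5, 32.4 and 40.8 in adult M-MDSC. Newborn M-MDSC were the highest group, and each newborn group lay above its adults. Mcm7's log2 fold change, newborn over adult, was 1.40 ± 0.17 (adjusted p = 1.63e-06) in PMN-MDSC and 3.03 ± 0.23 (adjusted p = 3.55e-08) in M-MDSC, and the difference of these age effects was 1.64 ± 0.27 (adjusted p = 0.000346).

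Cdc6, the ATPase that helps load the helicase, had among the largest differences of the age effects, although its adult M-MDSC values rest on few reads. Cdc6 had 20.8, 29.4, 24.2, 32.4 and 24.8 CPM in newborn PMN-MDSC, against 4.18 (lowest), 6.34 (median) and 7.92 (highest) in adult PMN-MDSC. Cdc6 in M-MDSC had 38.5, 59.0, 55.1, 55.5 and 42.4 CPM in newborns, against 1.10, 0.83 and 0 in adults. Adult M-MDSC held 4 counts of Cdc6 in all, and 0 in replicate 28. Cdc6's log2 fold change, newborn over adult, was 2.10 ± 0.35 (adjusted p = 6.75e-05) in PMN-MDSC and 7.49 ± 0.71 (adjusted p = 3.77e-07) in M-MDSC, and the difference of these age effects was 5.39 ± 0.79 (adjusted p = 0.000118). Leaving out 1 adult M-MDSC library at a time, the fold change in M-MDSC ran from 5.72 (without replicate 28) to 8.52 (without replicate 1), and was 8.45 without replicate 3. The difference of the age effects was 3.62, 6.40 and 6.33 without replicates 28, 1 and 3, called each time.

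Cdt1, the partner of Cdc6 in helicase loading, was the licensing gene with a negative value in PMN-MDSC. Cdt1 had 37.2, 52.3, 38.9, 46.5 and 39.3 CPM in newborn PMN-MDSC, against 38.5 (lowest), 49.4 (median) and 82.2 (highest) in adult PMN-MDSC. Cdt1 in M-MDSC had 125, 198, 164, 177 and 129 CPM in newborns, against 61.4, 61.0 and 40.7 in adults. Newborn PMN-MDSC lay within the adult range or just under it, whereas newborn M-MDSC lay wholly above adult M-MDSC. Cdt1's log2 fold change, newborn over adult, was -0.39 ± 0.20 (adjusted p = 0.122) in PMN-MDSC and 1.57 ± 0.26 (adjusted p = 0.000166) in M-MDSC, and the difference of these age effects was 1.97 ± 0.33 (adjusted p = 0.000363). In PMN-MDSC Cdt1 was called lower in newborns when the upper quartile was used for scaling (log2 fold change -0.63, adjusted p = 0.0145) or DESeq2 size factors (-0.57, adjusted p = 0.0326), so this call depends on the scaling. Orc6 and Orc1, subunits of the origin recognition complex, had few reads. Orc6 had 11.5 to 18.3 CPM in newborn PMN-MDSC and 2.40 to 8.59 in adult PMN-MDSC, and was called higher in newborns (log2 fold change 1.32 ± 0.34, adjusted p = 0.00349), though not without the batch 1 partners (adjusted p = 0.125). Orc1 had 2.19 to 7.35 CPM in newborn PMN-MDSC, against 0.6 to 4.38 in adult PMN-MDSC (log2 fold change 0.89 ± 0.74, adjusted p = 0.348). In M-MDSC Orc1 had 7.43, 6.41, 8.34, 0.422 and 8.33 CPM in newborns and 1.10, 0.83 and 0 in adults, with overlap through newborn replicate 77. Its call there (log2 fold change 3.82 ± 1.21, adjusted p = 0.0222) was lost without adult replicate 28 (2.74, adjusted p = 0.0636), and the value was 4.72 without replicate 1 and 4.52 without replicate 3.

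**Figure D4:**
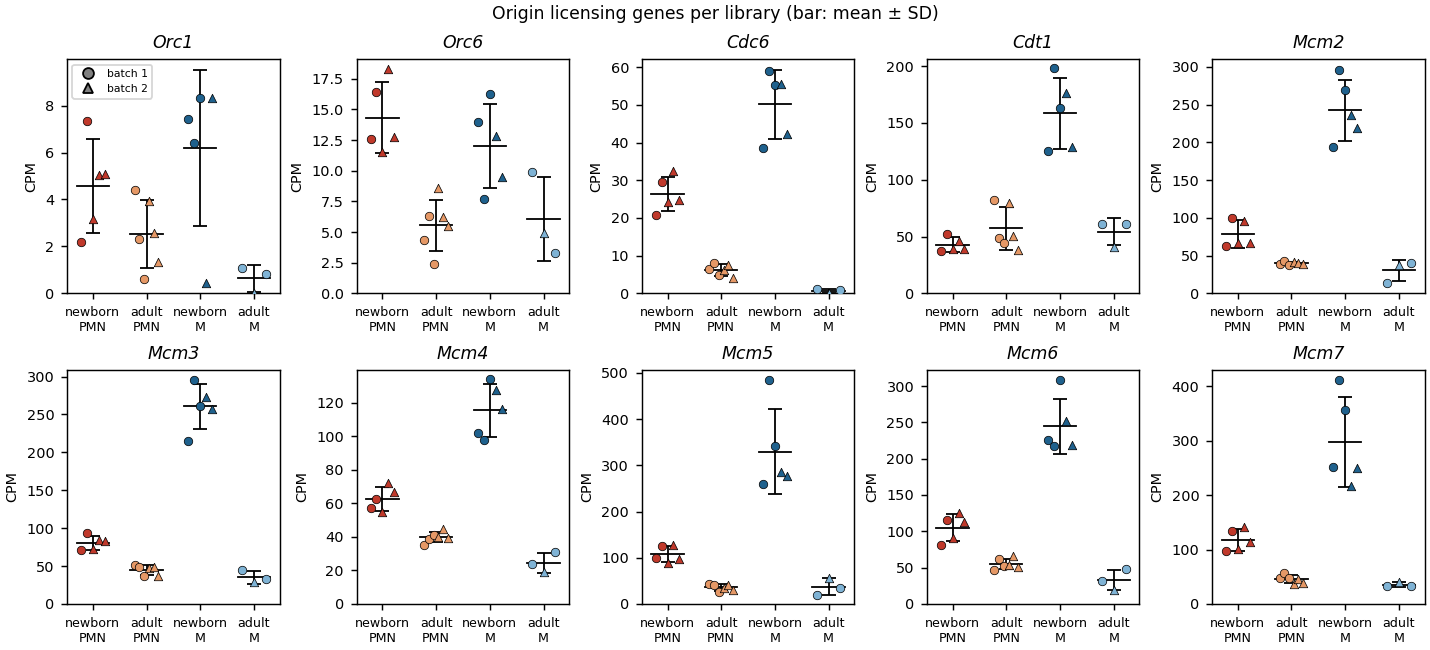
CPM (vertical axis, from 0, a scale for each gene) of the 10 origin licensing genes in every library of newborn PMN-MDSC, adult PMN-MDSC, newborn M-MDSC and adult M-MDSC; circles are batch 1, triangles batch 2, and bars the mean ± SD. For Mcm2 to Mcm7 the newborn M-MDSC libraries are the highest, and for Cdt1 newborn PMN-MDSC overlap the adult libraries.

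Origin firing genes, which turn the licensed helicase on, had 6 of 8 members called higher in newborn PMN-MDSC and all 8 in newborn M-MDSC. Without the batch 1 partners of the matched PMN-MDSC libraries, only Cdc45 and Gins2 were called of the 8 in PMN-MDSC, while Mcm10 (adjusted p = 0.21), Gins3 (0.113), Gins4 (0.262) and Ccne1 (0.123) were not, all with positive fold changes. The age effect was larger in M-MDSC for Mcm10 and Gins3. Cdc45, the helicase co-factor that joins at firing, came next after Rrm2 in the size of its PMN-MDSC change. Cdc45 had 44.9, 63.6, 54.1, 65.5 and 59.8 CPM in newborn PMN-MDSC, against 5.57 (lowest), 6.99 (median) and 8.29 (highest) in adult PMN-MDSC. Cdc45 in M-MDSC had 58.5, 103, 103, 61.4 and 68.4 CPM in newborns, against 0, 1.66 and 7.20 in adults. The ages were far apart in both types, with 0 counts in adult M-MDSC replicate 1. Cdc45's log2 fold change, newborn over adult, was 3.05 ± 0.36 (adjusted p = 1.1e-06) in PMN-MDSC and 4.38 ± 0.51 (adjusted p = 3.56e-06) in M-MDSC, and the difference of these age effects was 1.33 ± 0.57 (adjusted p = 0.116). Without adult M-MDSC replicate 28 the M-MDSC fold change was 6.42, and the difference of the age effects, 3.37, passed the threshold (adjusted p = 0.000886).

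Ccne1 encodes cyclin E1, which drives CDK2 at the entry to S phase. Ccne1 had 12, 13.4, 10.8, 14.0 and 13.1 CPM in newborn PMN-MDSC, against 0.787 (lowest), 2.52 (median) and 4.33 (highest) in adult PMN-MDSC. Ccne1 counted 27.9, 39.1, 23.2, 22.9 and 19.5 CPM in newborn M-MDSC and 0, 5.40 and 0 in adult M-MDSC. Newborns lay above adults in both types, and 2 of the 3 adult M-MDSC libraries had 0 counts. Ccne1's log2 fold change, newborn over adult, was 2.29 ± 0.66 (adjusted p = 0.00763) in PMN-MDSC and 4.29 ± 1.01 (adjusted p = 0.00336) in M-MDSC, and the difference of these age effects was 1.99 ± 1.15 (adjusted p = 0.253). In M-MDSC the Ccne1 value was 3.24 without replicate 28, and the fit gives no estimate of size without replicate 3, the only adult M-MDSC library with reads. Its relative Ccne2 was called higher in M-MDSC (log2 fold change 3.66 ± 0.94, adjusted p = 0.00655) and not in PMN-MDSC (log2 fold change 1.42 ± 0.60, adjusted p = 0.0584).

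Mcm10 had 27.4, 22.1, 26.7, 27.9 and 28.7 CPM in newborn PMN-MDSC, against 4.78 (lowest), 9.43 (median) and 15.8 (highest) in adult PMN-MDSC. Mcm10 in M-MDSC had 48.3, 85.3, 63.0, 80.6 and 64.5 CPM in newborns, against 6.03, 4.15 and 0 in adults. Mcm10, which helps Cdc45 and the helicase to start, was wholly higher in newborns of both types. Mcm10's log2 fold change, newborn over adult, was 1.505 ± 0.52 (adjusted p = 0.0229) in PMN-MDSC and 4.87 ± 0.86 (adjusted p = 0.0003) in M-MDSC, and the difference of these age effects was 3.36 ± 0.97 (adjusted p = 0.0209). The Mcm10 fold change in M-MDSC ran from 3.67 without adult M-MDSC replicate 28 to 6.00 without replicate 1, and was 5.57 without replicate 3. The difference of the age effects for Mcm10 was 2.17 without replicate 28, 4.48 without replicate 1 and 4.04 without replicate 3. The call in PMN-MDSC was lost without adult replicate 2, adult replicate 34 or newborn replicate 38 (highest adjusted p = 0.0558).

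Gins3 stood at 13.1, 6.92, 6.10, 6.40 and 8.70 CPM in newborn PMN-MDSC, while the adult PMN-MDSC libraries had a lowest value of 2.31, a median of 3.33 and a highest value of 6.58. Gins3 counted 9.29, 8.98, 10.7, 10.5 and 17.3 CPM in newborn M-MDSC and 1.10, 1.66 and 1.38 in adult M-MDSC. Gins3, a subunit of GINS, overlapped between ages in PMN-MDSC through adult replicate 1 and was apart in M-MDSC. Gins3's log2 fold change, newborn over adult, was 1.205 ± 0.35 (adjusted p = 0.00864) in PMN-MDSC and 3.04 ± 0.50 (adjusted p = 0.000151) in M-MDSC, and the difference of these age effects was 1.83 ± 0.59 (adjusted p = 0.0362). The difference of the age effects for Gins3 was lost in 12 of the 19 fits that left out 1 library (highest adjusted p = 0.0887), and its PMN-MDSC call without newborn replicate 2 (adjusted p = 0.0605). Gins2 was called higher in both types (log2 fold change 1.27 ± 0.37, adjusted p = 0.00872 in PMN-MDSC, log2 fold change 2.32 ± 0.47, adjusted p = 0.00106 in M-MDSC), as was Gins4 (log2 fold change 1.65 ± 0.56, adjusted p = 0.0206 in PMN-MDSC, log2 fold change 2.97 ± 0.83, adjusted p = 0.0111 in M-MDSC). Gins1 was called in M-MDSC (log2 fold change 4.25 ± 1.13, adjusted p = 0.00796) but had 2.73 to 3.97 CPM in newborn PMN-MDSC and 0 to 3.00 in adult PMN-MDSC, with no call (log2 fold change 1.07 ± 0.73, adjusted p = 0.242).

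The polymerases and fork proteins split in PMN-MDSC, with 9 of 18 called higher in newborns and 9 not called, whereas 17 of 18 were called higher in newborn M-MDSC. Without the batch 1 partners 4 of the 18 were called in PMN-MDSC (Pole, Fen1, Lig1 and Brca1), a share near that fit's background of 15.9%. Over all libraries the PMN-MDSC calls were Prim2, Pole, Rfc5, Rpa2, Fen1, Lig1, Exo1, Clspn and Brca1. Those not called there were Pola1, Pola2, Prim1, Pole2, Pold1, Pcna, Rfc2, Rfc3 and Rfc4. Among enzymes that finish the lagging strand, Lig1, the ligase that seals Okazaki fragments, and Fen1, the nuclease that trims them, were higher in newborns of both types. Lig1 had 85.4, 97.7, 74.8, 97.6 and 94.6 CPM in newborn PMN-MDSC, against 18.6 (lowest), 24.6 (median) and 27.4 (highest) in adult PMN-MDSC. Lig1 in M-MDSC had 137, 261, 192, 153 and 151 CPM in newborns, against 14.3, 19.9 and 46.3 in adults. The ages were apart for Lig1 in both types. Lig1's log2 fold change, newborn over adult, was 1.89 ± 0.24 (adjusted p = 2.56e-06) in PMN-MDSC and 2.69 ± 0.31 (adjusted p = 4.14e-06) in M-MDSC, and the difference of these age effects was 0.80 ± 0.37 (adjusted p = 0.153). Without adult M-MDSC replicate 28 the M-MDSC value was 3.43.

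Fen1 stood at 44.9, 79.1, 50.4, 71.1 and 50.2 CPM in newborn PMN-MDSC, while the adult PMN-MDSC libraries had a lowest value of 20.3, a median of 25.1 and a highest value of 29.7. Fen1 in M-MDSC had 104, 139, 111, 112 and 128 CPM in newborns, against 32.9, 36.5 and 52.1 in adults. The ages were apart for Fen1 in both types too. Fen1's log2 fold change, newborn over adult, was 1.24 ± 0.18 (adjusted p = 1.1e-05) in PMN-MDSC and 1.54 ± 0.22 (adjusted p = 4.04e-05) in M-MDSC, and the difference of these age effects was 0.30 ± 0.27 (adjusted p = 0.512). Brca1 had 28.5, 24.2, 32.6, 38.5 and 37.0 CPM in newborn PMN-MDSC, against 7.80 (lowest), 12.2 (median) and 13.6 (highest) in adult PMN-MDSC. Brca1 counted 44.6, 26.3, 51.9, 33.0 and 49.8 CPM in newborn M-MDSC and 10.4, 12.5 and 7.43 in adult M-MDSC. Brca1, which protects and repairs stalled forks, was also apart between ages in both types. Brca1's log2 fold change, newborn over adult, was 1.49 ± 0.22 (adjusted p = 2.02e-05) in PMN-MDSC and 2.05 ± 0.29 (adjusted p = 4.01e-05) in M-MDSC, and the difference of these age effects was 0.56 ± 0.36 (adjusted p = 0.308).

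Genes of the polymerases that copy both strands, and of primase, followed. Pole had 42.1, 51.9, 41.1, 50.8 and 47.7 CPM in newborn PMN-MDSC, against 17.7 (lowest), 21.1 (median) and 27.0 (highest) in adult PMN-MDSC. Pole in M-MDSC had 85.9, 101, 139, 65.5 and 87.4 CPM in newborns, against 8.23, 21.2 and 20.6 in adults. Pole, the catalytic subunit of polymerase epsilon, was wholly higher in newborns of both types. Pole's log2 fold change, newborn over adult, was 1.11 ± 0.22 (adjusted p = 0.000339) in PMN-MDSC and 2.47 ± 0.29 (adjusted p = 4.18e-06) in M-MDSC, and the difference of these age effects was 1.36 ± 0.35 (adjusted p = 0.00987). Pold1 had 51.4, 64.9, 57.5, 69.7 and 66.8 CPM in newborn PMN-MDSC, against 36.9 (lowest), 56.1 (median) and 60.0 (highest) in adult PMN-MDSC. Pold1 in M-MDSC had 124, 241, 136, 147 and 147 CPM in newborns, against 20.8, 49.8 and 61.7 in adults. Pold1, the catalytic subunit of polymerase delta, overlapped between ages in PMN-MDSC and not in M-MDSC. Pold1's log2 fold change, newborn over adult, was 0.23 ± 0.23 (adjusted p = 0.432) in PMN-MDSC and 1.82 ± 0.29 (adjusted p = 0.00012) in M-MDSC, and the difference of these age effects was 1.59 ± 0.36 (adjusted p = 0.00455).

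Prim1 had 17.0, 22.1, 18.6, 25.7 and 23.2 CPM in newborn PMN-MDSC, against 6.00 (lowest), 10.2 (median) and 18.2 (highest) in adult PMN-MDSC. Prim1 in M-MDSC had 39.5, 32.7, 36.6, 62.8 and 47.0 CPM in newborns, against 0, 2.49 and 0 in adults. Prim1, the catalytic subunit of primase, overlapped between ages in PMN-MDSC, and 2 of 3 adult M-MDSC libraries had 0 counts of it. Prim1's log2 fold change, newborn over adult, was 0.88 ± 0.46 (adjusted p = 0.125) in PMN-MDSC and 6.57 ± 0.90 (adjusted p = 2.47e-05) in M-MDSC, and the difference of these age effects was 5.69 ± 1.01 (adjusted p = 0.000635). The M-MDSC value of Prim1 was 4.85 without replicate 28 and 6.32 without replicate 1, and the difference of the age effects was 3.99 without replicate 28. Without replicate 3, both remaining adult M-MDSC libraries were at 0 and the fit gives no estimate of size.

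Pola2 had 14.2, 19, 15.2, 23.6 and 18.7 CPM in newborn PMN-MDSC, against 11 (lowest), 17.8 (median) and 22.8 (highest) in adult PMN-MDSC. Pola2 in M-MDSC had 37.6, 67.3, 52.8, 41.5 and 36.9 CPM in newborns, against 20.3, 22.8 and 12.4 in adults. Pola2, the regulatory subunit of polymerase alpha, overlapped between ages in PMN-MDSC and was apart in M-MDSC. Pola2's log2 fold change, newborn over adult, was 0.03 ± 0.23 (adjusted p = 0.934) in PMN-MDSC and 1.38 ± 0.29 (adjusted p = 0.00149) in M-MDSC, and the difference of these age effects was 1.35 ± 0.37 (adjusted p = 0.0144). Pola1 had 17.0, 17.3, 23.5, 18.0 and 33.6 CPM in newborn PMN-MDSC, against 18.0 (lowest), 25.8 (median) and 29.7 (highest) in adult PMN-MDSC. Pola1 in M-MDSC had 37.1, 16.0, 32.9, 90.1 and 56.4 CPM in newborns, against 21.9, 22.4 and 0 in adults. Pola1, the catalytic subunit, overlapped in both types and was at 0 in adult M-MDSC replicate 28. Pola1's log2 fold change, newborn over adult, was -0.25 ± 0.66 (adjusted p = 0.779) in PMN-MDSC and 1.64 ± 0.91 (adjusted p = 0.189) in M-MDSC, and the difference of these age effects was 1.90 ± 1.10 (adjusted p = 0.258). Rpa2 stood at 16.4, 25.5, 19.8, 23.9 and 21.2 CPM in newborn PMN-MDSC, while the adult PMN-MDSC libraries had a lowest value of 9.60, a median of 14.3 and a highest value of 18.1. Rpa2 counted 45, 69.9, 55.1, 28.9 and 41.6 CPM in newborn M-MDSC and 12.1, 21.6 and 10.9 in adult M-MDSC. Rpa2, part of the complex that coats single-stranded DNA, overlapped between ages in PMN-MDSC through 1 newborn library and was apart in M-MDSC. Rpa2's log2 fold change, newborn over adult, was 0.58 ± 0.23 (adjusted p = 0.0467) in PMN-MDSC and 1.71 ± 0.30 (adjusted p = 0.000309) in M-MDSC, and the difference of these age effects was 1.12 ± 0.37 (adjusted p = 0.0432). Of the 19 fits that left out 1 library, 12 lost the Rpa2 call in PMN-MDSC and 16 that for the difference (highest adjusted p = 0.127 in each).

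Pcna, the sliding clamp, had 133 to 164 CPM in newborn PMN-MDSC and 79.2 to 146 in adult PMN-MDSC (log2 fold change 0.29 ± 0.16, adjusted p = 0.151), and 187 to 269 in newborn M-MDSC and 88.8 to 148 in adult M-MDSC (log2 fold change 1.02 ± 0.21, adjusted p = 0.00096). Among the clamp loader subunits, Rfc2 was called in M-MDSC (log2 fold change 0.97 ± 0.23, adjusted p = 0.00419) and not in PMN-MDSC (log2 fold change 0.38 ± 0.19, adjusted p = 0.104), and the difference of its age effects missed the threshold (0.59 ± 0.30, adjusted p = 0.19). Rfc5 was called in PMN-MDSC (log2 fold change 0.67 ± 0.23, adjusted p = 0.0212, lost without adult replicate 34) and in M-MDSC (log2 fold change 1.28 ± 0.29, adjusted p = 0.00246). Rfc3 and Rfc4 had no call in PMN-MDSC and were at 0 in adult M-MDSC replicate 28. The Rfc3 call in M-MDSC was lost in 17 of the 19 fits that left out 1 library (highest adjusted p = 0.0768). Pole2, a smaller subunit of polymerase epsilon, was called in M-MDSC (log2 fold change 1.75 ± 0.48, adjusted p = 0.0102), a call lost without adult replicate 1 (1.33, adjusted p = 0.0546). The checkpoint adaptor Clspn and the nuclease Exo1 were called higher in newborns of both types, by 1.97 and 1.77 on the log2 scale in PMN-MDSC, where the Exo1 call was lost in 4 of the 19 fits that left out 1 library (highest adjusted p = 0.0651).

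Per kilobase of exon, which allows levels of different genes to be set side by side, Rrm2 had the highest mean in newborn PMN-MDSC, with 69.2 ± 10.9 CPM per kb (SD, n = 5), and ranked 13 in adult PMN-MDSC with 5.88 ± 1.85 (n = 6). Pcna followed in newborn PMN-MDSC (61.5 ± 5.13), within the spread of Rrm2, and led adult PMN-MDSC (49.8 ± 10.8). In newborn M-MDSC Pcna (102 ± 14.9, n = 5), Rrm2 (91.0 ± 16.7) and Mcm5 (82.5 ± 22.9) led, and Pcna and Rrm2 did not differ beyond their spread. Pcna led adult M-MDSC as well (50.1 ± 12.4, n = 3), followed by Cdt1 (17.3 ± 3.78). The clamp gene was thus first or level with the first in all 4 groups, and Rrm2 was near the top in the newborn groups.

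The nucleotide supply group held the largest PMN-MDSC change of all members, in Rrm2, and the only member called lower there, Ung. Ung was placed in this group although it cuts uracil out of DNA and supplies no nucleotides. Ribonucleotide reductase, made of Rrm1 and Rrm2, produces the deoxynucleotides for DNA. Rrm2 had 159.8, 192, 163, 219 and 225 CPM in newborn PMN-MDSC, against 11 (lowest), 15.6 (median) and 24.0 (highest) in adult PMN-MDSC. Rrm2 in M-MDSC had 212, 273, 316, 258 and 203 CPM in newborns, against 16.5, 26.6 and 14.2 in adults. Rrm2 was far apart between the ages in both types, while newborns of the 2 types overlapped. Rrm2's log2 fold change, newborn over adult, was 3.53 ± 0.22 (adjusted p = 4.02e-10) in PMN-MDSC and 3.76 ± 0.30 (adjusted p = 6.19e-08) in M-MDSC, and the difference of these age effects was 0.23 ± 0.33 (adjusted p = 0.693). Rrm1 had 152, 198, 174, 217 and 205 CPM in newborn PMN-MDSC, against 45.6 (lowest), 48.6 (median) and 61.2 (highest) in adult PMN-MDSC. Rrm1 in M-MDSC had 266, 282, 396, 295 and 348 CPM in newborns, against 27.4, 40.3 and 12.9 in adults. Rrm1 was also apart between the ages in both types. Rrm1's log2 fold change, newborn over adult, was 1.91 ± 0.21 (adjusted p = 4e-07) in PMN-MDSC and 3.63 ± 0.30 (adjusted p = 7.77e-08) in M-MDSC, and the difference of these age effects was 1.71 ± 0.34 (adjusted p = 0.00144).

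Tk1 had 52.0, 45.8, 38.7, 47.4 and 48.4 CPM in newborn PMN-MDSC, against 18.5 (lowest), 22.2 (median) and 23.8 (highest) in adult PMN-MDSC. Tk1 in M-MDSC had 77.1, 132, 100.1, 82.7 and 72.2 CPM in newborns, against 19.2, 14.9 and 7.37 in adults. Tk1, the S phase thymidine kinase, was apart between ages in both types. Tk1's log2 fold change, newborn over adult, was 1.10 ± 0.19 (adjusted p = 0.000101) in PMN-MDSC and 2.84 ± 0.27 (adjusted p = 3.63e-07) in M-MDSC, and the difference of these age effects was 1.74 ± 0.31 (adjusted p = 0.000758). Dut stood at 17.0, 23.8, 13.1, 24.5 and 18.3 CPM in newborn PMN-MDSC, while the adult PMN-MDSC libraries had a lowest value of 6.36, a median of 10.4 and a highest value of 12. Dut counted 40.4, 61.6, 43.1, 35.1 and 32.6 CPM in newborn M-MDSC and 4.39, 4.98 and 6.85 in adult M-MDSC. Dut, which removes dUTP so that uracil is kept out of DNA, was also apart between the ages in both types. Dut's log2 fold change, newborn over adult, was 1.05 ± 0.23 (adjusted p = 0.00105) in PMN-MDSC and 2.88 ± 0.32 (adjusted p = 2.19e-06) in M-MDSC, and the difference of these age effects was 1.83 ± 0.38 (adjusted p = 0.00232). Tyms, thymidylate synthase, was not called in either type. Its range was 78.8 to 145 CPM in newborn PMN-MDSC and 71.1 to 111 in adult PMN-MDSC, and 76.3 to 124 in newborn M-MDSC against 81.7, 125 and 1.61 in adult M-MDSC.

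Ung had 3.83, 3.89, 2.33, 3.68 and 1.86 CPM in newborn PMN-MDSC, against 4.95 (lowest), 6.22 (median) and 11 (highest) in adult PMN-MDSC. Ung in M-MDSC had 13.9, 5.77, 5.56, 6.47 and 7.25 CPM in newborns, against 7.68, 2.08 and 5.41 in adults. Ung, the glycosylase that cuts uracil out of DNA, was the only member called lower in newborn PMN-MDSC, where every newborn library lay below every adult one, and it overlapped in M-MDSC. Ung's log2 fold change, newborn over adult, was -1.22 ± 0.42 (adjusted p = 0.0216) in PMN-MDSC and 0.62 ± 0.50 (adjusted p = 0.378) in M-MDSC, and the difference of these age effects was 1.85 ± 0.66 (adjusted p = 0.0586). The PMN-MDSC call was lost without adult replicate 1 or 32 or newborn replicate 37 or 39 (highest adjusted p = 0.0631), and by the same fit on batch 1 alone (-0.86, adjusted p = 0.402), while batch 2 alone gave -1.39 (adjusted p = 0.0463).

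Chromatin copying, the re-assembly of nucleosomes and DNA methylation behind the fork, had 3 of 5 members called higher in newborn PMN-MDSC and all 5 in newborn M-MDSC. Chaf1a had 48.2, 59.7, 50.9, 61.9 and 55.8 CPM in newborn PMN-MDSC, against 8.25 (lowest), 9.29 (median) and 11.5 (highest) in adult PMN-MDSC. Chaf1a in M-MDSC had 73.8, 124, 128, 86.6 and 102 CPM in newborns, against 5.48, 8.30 and 10.9 in adults. Chaf1a, the large subunit of chromatin assembly factor 1, was apart between the ages in both types. Chaf1a's log2 fold change, newborn over adult, was 2.53 ± 0.19 (adjusted p = 2.62e-09) in PMN-MDSC and 3.57 ± 0.25 (adjusted p = 1.99e-08) in M-MDSC, and the difference of these age effects was 1.04 ± 0.29 (adjusted p = 0.0172). The difference of the Chaf1a age effects was lost without adult M-MDSC replicate 1 (adjusted p = 0.0529). Its partner Chaf1b was called in M-MDSC (log2 fold change 1.53 ± 0.39, adjusted p = 0.00646) and not in PMN-MDSC (log2 fold change 0.25 ± 0.30, adjusted p = 0.519).

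Uhrf1 had 103, 128, 97.6, 121 and 106 CPM in newborn PMN-MDSC, against 20.8 (lowest), 22.2 (median) and 29.4 (highest) in adult PMN-MDSC. Uhrf1 in M-MDSC had 217, 371, 265, 272 and 311 CPM in newborns, against 13.7, 29.9 and 8.46 in adults. Uhrf1, which reads newly copied, partly methylated DNA and recruits Dnmt1, was wholly higher in newborns of both types. Uhrf1's log2 fold change, newborn over adult, was 2.20 ± 0.23 (adjusted p = 2.05e-07) in PMN-MDSC and 4.15 ± 0.33 (adjusted p = 5.84e-08) in M-MDSC, and the difference of these age effects was 1.94 ± 0.37 (adjusted p = 0.00111). Without adult M-MDSC replicate 3 its M-MDSC value was 4.80 and the difference 2.57. Dnmt1 stood at 213, 274, 195, 267 and 226 CPM in newborn PMN-MDSC, while the adult PMN-MDSC libraries had a lowest value of 43.8, a median of 71.3 and a highest value of 76.1. Dnmt1 counted 408, 522, 495, 516 and 465 CPM in newborn M-MDSC and 60.3, 110.0 and 113 in adult M-MDSC. Dnmt1, the maintenance methyltransferase, was also apart between the ages, with the highest CPM of all members in newborn M-MDSC. Dnmt1's log2 fold change, newborn over adult, was 1.86 ± 0.18 (adjusted p = 1.22e-07) in PMN-MDSC and 2.34 ± 0.24 (adjusted p = 9.47e-07) in M-MDSC, and the difference of these age effects was 0.48 ± 0.28 (adjusted p = 0.273). Slbp, which binds histone mRNA, had 70.2 to 82.6 CPM in newborn PMN-MDSC and 47.4 to 65.2 in adult PMN-MDSC, without a call (log2 fold change 0.43 ± 0.17, adjusted p = 0.0521), and was called in M-MDSC (log2 fold change 1.07 ± 0.22, adjusted p = 0.00134).

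**Figure D5:**
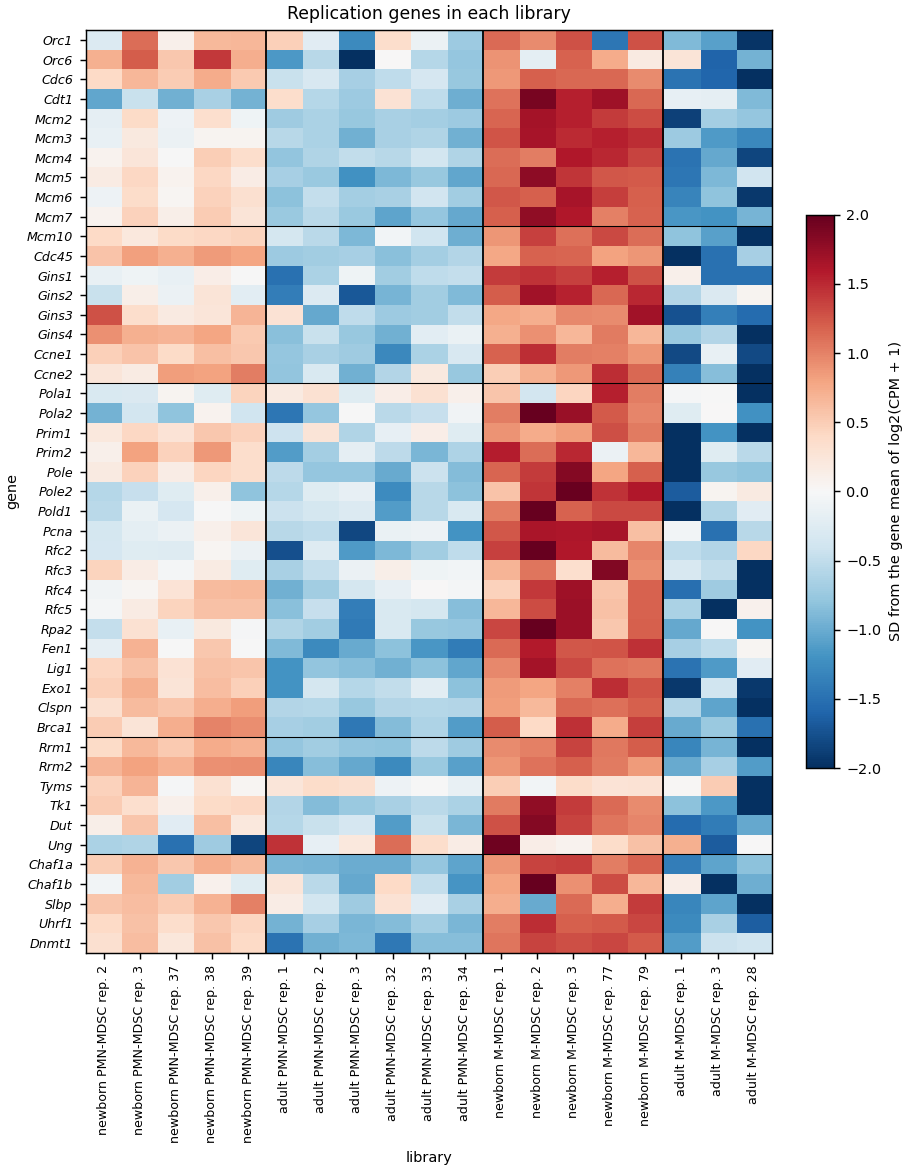
Level of the 47 genes (rows, by role group) in the 19 libraries (columns, by group), coloured by the number of SD above (red) or below (blue) the gene's mean of log2(CPM + 1), with values beyond 2 SD in the end colours. Newborn M-MDSC are red for most genes, newborn PMN-MDSC mostly light red, and adult libraries mostly blue.

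Calls were also made within each batch and without the doubted libraries. Batch 1 alone placed 21 members higher in newborn PMN-MDSC (background 18.5%), 42 in newborn M-MDSC (13.5%) and 10 with a larger age effect in M-MDSC (1.22%). Batch 2 alone gave 31 (19.1%), 40 (16.5%) and 23 (13.6%) in the same order, but it held 1 adult M-MDSC library, whose spread was assumed to be that of the other groups. Without the batch 1 partners of the matched libraries 20 members were called higher in newborn PMN-MDSC (background 15.9%), 41 in newborn M-MDSC (9.04%) and 11 had a larger age effect in M-MDSC (1.35%). Besides the firing and fork genes given above, Orc6 and Ung lost their PMN-MDSC calls there. With the matched libraries as a random block in limma-voom (consensus correlation 0.812), 21 members were called higher in newborn PMN-MDSC (background 20.9%). The 11 with a larger age effect without the partners were Cdc6, Cdt1, Mcm2, Mcm3, Mcm4, Mcm6, Mcm7, Prim1, Rrm1, Tk1 and Uhrf1. Without adult M-MDSC replicate 28 the counts were 33 (29.3%), 42 (16.0%) and 21 (6.35%). Over all fits run, 15 of the 31 PMN-MDSC calls were made in every fit (Cdc6, Mcm3, Mcm5, Mcm6, Mcm7, Cdc45, Fen1, Lig1, Brca1, Rrm1, Rrm2, Tk1, Chaf1a, Uhrf1 and Dnmt1), as were 29 of the 43 M-MDSC calls and, for the difference of the age effects, Cdc6, Mcm2, Mcm3, Mcm6 and Prim1.

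In M-MDSC the fold of 15 of the 43 called changes, though not their direction, moved by more than 1.5 times when 1 adult M-MDSC library was left out. Besides the genes given above, these were Gins1 (3.18 without replicate 28), Gins4 (1.99 without replicate 28 and 3.94 without replicate 3), Ccne2 (2.48 without replicate 28 and 5.81 without replicate 3), Rfc3 (1.52 without replicate 28), Rfc4 (2.82 without replicate 28 and 6.42 without replicate 3), Exo1 (3.25 without replicate 28) and Clspn (2.77 without replicate 28 and 4.99 without replicate 1). Gins1 without replicate 1 and Exo1 without replicate 3 leave adult M-MDSC at 0 and give no estimate of size. Adult M-MDSC held 4 counts of Orc1, 4 of Cdc6, 6 of Prim1, 7 of Gins1, 7 of Ccne2, 9 of Rfc4 and 9 of Exo1 in all, so the sizes of their fold changes are uncertain. For Orc1 the ages also overlapped, and its call was lost without replicate 28.

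Between the cell types, replication genes were mostly higher in newborn M-MDSC than in newborn PMN-MDSC and not so in adults. In newborns, 26 members were called higher in M-MDSC than in PMN-MDSC and none lower (0 also at an unadjusted p under 0.05, in DESeq2 and in limma-voom), on a background of 18.7% higher and 23.4% lower. The members had a median log2 fold change of 0.98 against -0.13 over all genes tested. All libraries of newborn M-MDSC exceeded all of newborn PMN-MDSC for 31 members (background 16.0%). Cdt1 (log2 fold change 1.86 ± 0.22, adjusted p = 1.87e-06), Mcm3 (log2 fold change 1.67 ± 0.15, adjusted p = 5.38e-08) and Gins2 (log2 fold change 2.09 ± 0.39, adjusted p = 0.00026) were among them, while Rrm2 was not called (log2 fold change 0.37 ± 0.21, adjusted p = 0.177). Batch 1 alone called 25 (background 11.7%), batch 2 alone 24 (9.31%), and the fit without adult M-MDSC replicate 28, which enters through the shared spread, 33 (20.8%).

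In adults, 2 members were called higher in M-MDSC than in PMN-MDSC (Fen1 and Dnmt1) and 8 lower (Cdc6, Mcm4, Mcm6, Gins3, Prim1, Rrm1, Tk1 and Slbp), on a background of 16.7% higher and 12.5% lower, with a median of -0.54 against -0.13 over all genes tested. The share of members called higher, 4.26%, was below that of all genes, and the share called lower, 17.0%, was near it. For Fen1 alone all libraries of adult M-MDSC exceeded all of adult PMN-MDSC (14.0% of all genes did). For Cdc6, Mcm4, Gins3, Prim1, Rrm1 and Slbp all lay below. These 6 of 47 members were no larger a share than the 15.7% of all genes. Of the 19 fits that left out 1 library, 13 lost the Dnmt1 call, 11 that of Gins3 and 10 that of Slbp. Without adult M-MDSC replicate 28 neither Fen1 nor Dnmt1 was called, and 4 members were called lower (background 6.90%), namely Cdc6, Prim1, Cdc45 (-2.97, adjusted p = 0.0013) and Dut (-1.20, adjusted p = 0.028). Batch 1 alone called 3 lower (4.92%) and batch 2 alone, where replicate 28 is the only adult M-MDSC library, 21 (24.0%). Cdc6 and Prim1 were called lower in every fit run, at -5.60 and -4.46 without adult M-MDSC replicate 1, and at -2.71 and -2.91 without replicate 28.

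Other genes of the cell cycle, from lists drawn up beside the members, are set beside them here. Over all genes tested, 27.1% were called higher and 20.5% lower in newborn PMN-MDSC, and 15.9% higher and 14.3% lower in newborn M-MDSC. Of 25 genes of G2 and mitosis, 24 were called higher in newborns in each cell type, with a median log2 fold change of 3.16 in PMN-MDSC and 3.46 in M-MDSC. The mitotic kinase Aurka averaged 95.0 CPM in newborn PMN-MDSC and 8.42 in adult PMN-MDSC (3.43 ± 0.19, adjusted p = 7.38e-11). Cdc20, the activator of the anaphase complex, changed by 3.82 ± 0.25, adjusted p = 5.57e-10, and the spindle genes Tpx2 and Kif20a by 3.21 and 3.62. The age effect was called larger in M-MDSC for Cenpa and Kif23 (8.00% of the list), a share near the 6.61% of all genes tested. It was larger for 10 of the 25 genes at an unadjusted p under 0.05, 6 in DESeq2 and 9 in limma-voom. Of all 12943 genes tested, DESeq2 called 1441 larger and limma-voom 1719. In PMN-MDSC the median of the G2 and mitosis list stood beside 1.10 for the replication members, which is set out here without a test.

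Among 23 regulators of G1 and S phase, 12 were called higher and 4 lower in newborn PMN-MDSC, and 13 higher and 3 lower in newborn M-MDSC. The shares called higher were 52.2% in PMN-MDSC and 56.5% in M-MDSC, above those over all genes, while the 4 genes called lower in PMN-MDSC (17.4%) and the 3 in M-MDSC were shares near those over all genes. The atypical repressor E2f8 (3.91 ± 0.18, adjusted p = 1.25e-11), the activator E2f2 (2.16 ± 0.13, adjusted p = 2.85e-10), the phosphatase Cdc25a (3.12 ± 0.20, adjusted p = 4.56e-10) and cyclin A2 (Ccna2, 3.25 ± 0.22, adjusted p = 1.2e-09) led in PMN-MDSC. The 4 genes called lower there were the D cyclins Ccnd2 (-1.61 ± 0.26, adjusted p = 4.55e-05) and Ccnd1 (-1.91 ± 0.68, adjusted p = 0.0261), their kinase Cdk4 (-0.59 ± 0.15, adjusted p = 0.00315) and the CDK inhibitor Cdkn1b (-0.45 ± 0.13, adjusted p = 0.00957). In M-MDSC the genes called lower were Ccnd2, Cdkn1b and the CDK inhibitor Cdkn1a (-1.39 ± 0.46, adjusted p = 0.0301). Cdk4 was called higher in newborn M-MDSC (1.199 ± 0.18, adjusted p = 7.33e-05), with a difference of the age effects of 1.78 ± 0.23, adjusted p = 4.16e-05. That difference was positive for Ccna2 and Cdkn2c too, and negative for E2f2, Cdkn2d and Ccnd3.

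Of 33 other replication factors, 11 were called higher and 4 lower in newborn PMN-MDSC (median 0.32), and 20 higher and 1 lower in newborn M-MDSC (median 1.28). In PMN-MDSC these shares, 33.3% higher and 12.1% lower, lay near or below the 27.1% and 20.5% over all genes, while in M-MDSC 60.6% were called higher, against 15.9%. The nuclease and helicase Dna2 (1.68 ± 0.16, adjusted p = 5.72e-08), the Mcm-binding protein Mcmbp (1.07 ± 0.17, adjusted p = 4.55e-05), the Cdt1 inhibitor geminin (Gmnn, 2.28 ± 0.38, adjusted p = 6.9e-05) and the clamp loader subunit Chtf18 (1.96 ± 0.33, adjusted p = 7.36e-05) led. The genes called lower in newborn PMN-MDSC were Orc4 (-1.33 ± 0.30, adjusted p = 0.00114), Pold4 (-0.97 ± 0.22, adjusted p = 0.00144), Donson (-0.82 ± 0.29, adjusted p = 0.0264) and Pole4 (-0.84 ± 0.31, adjusted p = 0.0323), and Orc4 was the gene called lower in M-MDSC. The age effect was larger in M-MDSC for 9 of the 33 (27.3%, against 6.61% of all genes) and smaller for Dna2 (3.03%, against 11.5%).

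Nucleotide synthesis enzymes outside the 47 genes split by cell type. In newborn PMN-MDSC 3 of 26 were called higher (Mthfd2, Dtymk and Gart, 11.5% against 27.1% of all genes). There 14 were called lower (53.8%, against 20.5%), and the median over the list was -0.62. In newborn M-MDSC 14 were called higher (53.8%, against 15.9%) and 1 lower (3.85%, against 14.3%), with a median of 0.92. The age effect was larger in M-MDSC for 16 (61.5%, against 6.61% of all genes). It was smaller for 2, Samhd1 and Tk2 (7.69%, against 11.5%). The purine enzyme Atic averaged 22.2 CPM in newborn PMN-MDSC and 42.7 in adult PMN-MDSC (-0.95 ± 0.19, adjusted p = 0.00039), and 126 in newborn M-MDSC and 47.7 in adult M-MDSC (1.38 ± 0.23, adjusted p = 0.000176). The kinases Nme2 (-1.87 ± 0.34, adjusted p = 0.000183) and Nme1 (-1.02 ± 0.24, adjusted p = 0.00156) fell in newborn PMN-MDSC, and the one-carbon enzyme Mthfd2 rose (1.74 ± 0.28, adjusted p = 5.33e-05). Samhd1, which breaks down deoxynucleotides, was the gene called lower in newborn M-MDSC (-0.95 ± 0.13, adjusted p = 2.41e-05).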

How the data were processed

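RNA was measured in 19 libraries by 50-base single-end sequencing of total RNA, per the labels' protocols. The authors deposited 1 table of expected counts per gene, given as whole numbers; RSEM 1.2.3, DESeq2 and build mm10 are named without a role in the submitters' processing notes, and which aligner and gene annotation were used is not given in the sources used here. In this table, rounding changed no value, and 4 groups were taken from the labels.

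All genes were fitted in R 4.3.3 with edgeR 4.0.16 (quasi-likelihood test) on group and batch over all 19 libraries, with TMM scaling and the filterByExpr filter by group (14 residual degrees of freedom). P-values were adjusted over all tested genes by the Benjamini-Hochberg method and called under 0.05, and ± beside a log2 fold change is its SE. CPM are counts relative to the TMM-scaled library size. Total counts per library set the precision, with lower depth in batch 1. The code was tested on simulated data.

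Alternatives used limma 3.58.1 and DESeq2 1.42.0, other filters and scalings, single batches and each library left out. The members and all lists were chosen with earlier results of these data known. Members got values per library where they were among the 3 smallest adjusted p-values of their role group in an age comparison, went against most members, or had a called difference of the age effects. Of each other list, up to 4 genes by smallest adjusted p in PMN-MDSC, and those called against most of the list, were named; Cenpa, Kif23, Ccna2, Cdkn2c, Cdkn2d and Ccnd3 were named after their values were seen. Promoter windows are from RefSeq (GRCm38.p6). In 40 of the 45 windows of members, bases 21 to 40 of the transcribed side lay in a transcript of that gene in the GENCODE annotation used here.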

Additional observations from a re-analysis of the deposited data

Results flagged for a closer look

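Of 144 groups of members tested for a library far from the others (the gap to the nearest library over the group's range, against Dixon's critical value), 7 stood out, where chance gives about 5%. Orc1 in newborn M-MDSC replicate 77 was at 0.422 CPM, with the others at 6.41 to 8.34 (ratio 0.757). Gins3 stood out in newborn M-MDSC replicate 79, at 17.3 CPM against 8.98 to 10.7 (0.798), and in adult PMN-MDSC replicate 1, at 6.58 CPM against 2.31 to 3.66 (0.684). Pold1 was at 241 CPM in newborn M-MDSC replicate 2, with the others at 124 to 147 (0.802). Ung was at 13.9 CPM in newborn M-MDSC replicate 1, with the others at 5.56 to 7.25 (0.798). In adult PMN-MDSC, Clspn was at 7.20 CPM in replicate 3 with the others at 8.70 to 8.91 (0.875), and Rrm1 at 61.2 CPM in replicate 33 with the others at 45.6 to 50.8 (0.662).

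The age effect (log2 fold change, newborn over adult) differed between the cell types for 20 members by edgeR's test of the difference, M-MDSC minus PMN-MDSC, and was larger in M-MDSC for each. In origin licensing the difference was 5.39 for Cdc6, 1.97 for Cdt1, 1.99 for Mcm2, 2.07 for Mcm3, 1.60 for Mcm4, 1.52 for Mcm5, 2.00 for Mcm6 and 1.64 for Mcm7. In origin firing it was 3.36 for Mcm10 and 1.83 for Gins3. At the fork it was 1.35 for Pola2, 5.69 for Prim1, 1.36 for Pole, 1.59 for Pold1 and 1.12 for Rpa2. In nucleotide supply it was 1.71 for Rrm1, 1.74 for Tk1 and 1.83 for Dut, and in chromatin copying 1.04 for Chaf1a and 1.94 for Uhrf1. Without the batch 1 partners of the matched libraries, Mcm5, Mcm10, Gins3, Pola2, Pole, Pold1, Rpa2, Dut and Chaf1a were not called.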

How the results depend on the processing

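No called member changed direction in any fit. The counts of members called higher in newborns stayed within 1.5 times of 30 in PMN-MDSC (20 to 37) and of 43 in M-MDSC (29 to 44) in the fits run. The calls over all genes moved between these fits as well. The fit on the compared groups gave the 37 and the 29, with 4710 of 14479 and 665 of 10814 genes called higher. Without the batch 1 partners 20 members were called higher in PMN-MDSC, on a background of 15.9%. Leaving out 1 library gave 26 to 33 in PMN-MDSC and 42 to 43 in M-MDSC, 18 to 23 for a larger age effect in M-MDSC, and 22 to 33 for M-MDSC over PMN-MDSC in newborns. A larger age effect in M-MDSC was called for 20 members, 10 in batch 1 alone and 11 without the batch 1 partners of the matched libraries. In newborns, 26 members were called higher in M-MDSC, and 16 without those partners. The single member called lower in newborn PMN-MDSC, Ung, gave 0 in batch 1 alone, with no expression filter and without the partners, and 2 with DESeq2 size factors, with upper-quartile scaling and in DESeq2's Wald test, where Cdt1 was added. It gave 0 to 1 when 1 library was left out.

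In adults, members called higher in M-MDSC than in PMN-MDSC numbered 2, but 0 in batch 1 alone and 1 in the fit on the compared groups, with DESeq2 size factors, upper-quartile scaling, no expression filter, scaling without haemoglobin, immunoglobulin and mitochondrial genes, without the partners, and with matched libraries as a random block in limma-voom. Leaving out 1 library gave 0 to 2. Members called lower there numbered 8, but 3 in batch 1 alone, 21 in batch 2 alone, 3 in the fit on the compared groups, 14 in DESeq2's Wald test, 20 in limma-voom, 19 with matched libraries as a random block and 5 without the partners. Leaving out 1 library gave 4 to 12. The cause was not tested. Whether replicate numbers pair samples cannot be told from correlated deviations, as centring groups of 2 or 3 libraries forces values of opposite sign. Same-numbered libraries of batch 1 in different groups correlated at -0.0874 to 0.267 in their deviations, and differently numbered ones at -0.267 to 0.109. A replicate block in batch 1 gave 20 higher and 0 lower in PMN-MDSC, 40 higher in M-MDSC, 14 with a larger age effect in M-MDSC, 27 higher in newborn M-MDSC over PMN-MDSC, and 0 higher and 3 lower in adults. A fit on the compared groups cannot hold the difference of the age effects. Genes with few counts in the batch 1 libraries, where 3 counts are 0.990 to 3.29 CPM, are limited by depth.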
